A study of Mus musculus with 8 samples.

Results

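The endoplasmic reticulum (ER) unfolded protein response was described by the RNA counts of 10 genes in OT-I CD8+ T cells, which carry a transgenic receptor for a peptide of chicken ovalbumin. The genes were Hspa5, Xbp1, Atf6, Ern1, Dnajb9, Hsp90b1, Pdia4, Herpud1, Sdf2l1 and Calr, chosen by symbol out of 56805 symbols in the count table. All 10 passed the filter on low counts, as did 16006 genes in all. Both groups came from crosses of Rag2/OT-I with Rosa26-Cas9 mice on a C57BL/6J background, in which Cas9 is expressed constitutively, and for mice used as a source of T cells the methods give an age of 6 to 10 weeks. The cells were activated with CD3/CD28 beads, cultured with IL-2, IL-7 and IL-15, and transduced with a lentiviral vector carrying a guide RNA against Elovl1 (sgElovl1) or a non-targeting guide (sgNT). Elovl1 encodes an elongase of very-long-chain fatty acids. Sorting for the vector's reporter, CD90.1, took place 3 days after transduction, and so days after activation, in the course of culture with cytokines. It marks transduced cells, whether or not Elovl1 was edited in them. GEO's labels list 8 samples from 2 experiments, 4 per guide, and according to the methods a replicate is a mouse. The authors summed the 2 mice of each group within an experiment, so that every value below belongs to 1 of 4 summed columns and the spread between mice was not analysed here. The labels number the experiments and do not say how they differed.

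Proteins that enter the secretory pathway fold in the ER, and the unfolded protein response adjusts the folding capacity of this compartment to its load. The sensors IRE1 (Ern1), PERK (Eif2ak3) and ATF6 span the ER membrane. IRE1 splices the mRNA of the transcription factor XBP1, ATF6 is cleaved into a transcription factor, and PERK phosphorylates eIF2alpha, which slows translation and favours that of ATF4. Their targets encode chaperones, disulfide isomerases and components of ER-associated degradation. In CD8+ T cells the pathway is known to be engaged during activation, when the cells enlarge and begin to secrete cytokines and cytotoxic proteins.

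For 9 of the 10 genes, all but Atf6, the fitted difference between the experiments was larger in size than that between the guides. This held for the series at large. Over all genes tested, the median size of the log2 fold change was 0.47 between the experiments and 0.12 between the guides. In experiment 2, 7 of the 10 genes were lower than in experiment 1, led by the lectin chaperone Calr at 42.1%, and Dnajb9, a cochaperone of BiP, was higher at 155% of its level in experiment 1. Over all 16006 genes tested, 29.2% were called lower and 26.4% higher between the experiments. Between sgElovl1 and sgNT cells 8 of the 10 fitted log2 fold changes lay between -0.16 and -0.05, and no gene of the 10 passed the threshold of an adjusted p of 0.05, against 1.20% of all genes tested.

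Several genes of the response carry ER stress elements in their promoters, to which ATF6 and XBP1 bind together with NF-Y in mammalian cells. The promoter windows below are shown because they hold such an element, or, for Dnajb9, because this gene moved opposite to the 7 that fell between the experiments. Sdf2l1, Xbp1 and Pdia4 also fell, held no such element and are not shown. Each window runs from 250 bases before to 50 bases after the annotated start, as given by RefSeq on GRCm38.p6, in the direction of the gene. The windows are chr2:34771840-34772139 (Hspa5, plus strand), chr10:86705395-86705694 (Hsp90b1, minus strand), chr8:84846882-84847181 (Calr, minus strand), chr8:94386179-94386478 (Herpud1, plus strand) and chr12:44210019-44210318 (Dnajb9, minus strand). Capitals mark the fixed bases at both ends of each element.
Hspa5: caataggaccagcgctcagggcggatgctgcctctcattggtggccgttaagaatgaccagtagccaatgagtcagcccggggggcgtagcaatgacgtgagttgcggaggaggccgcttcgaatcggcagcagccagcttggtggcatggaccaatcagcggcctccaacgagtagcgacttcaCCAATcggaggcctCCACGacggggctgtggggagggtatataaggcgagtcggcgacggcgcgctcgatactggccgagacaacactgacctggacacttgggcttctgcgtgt
Hsp90b1: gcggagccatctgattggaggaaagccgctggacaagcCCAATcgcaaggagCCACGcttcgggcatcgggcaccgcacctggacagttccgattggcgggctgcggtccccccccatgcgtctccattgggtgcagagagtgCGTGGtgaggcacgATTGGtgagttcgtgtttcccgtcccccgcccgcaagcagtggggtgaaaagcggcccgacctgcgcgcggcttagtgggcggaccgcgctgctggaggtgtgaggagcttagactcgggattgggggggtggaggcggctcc
Calr: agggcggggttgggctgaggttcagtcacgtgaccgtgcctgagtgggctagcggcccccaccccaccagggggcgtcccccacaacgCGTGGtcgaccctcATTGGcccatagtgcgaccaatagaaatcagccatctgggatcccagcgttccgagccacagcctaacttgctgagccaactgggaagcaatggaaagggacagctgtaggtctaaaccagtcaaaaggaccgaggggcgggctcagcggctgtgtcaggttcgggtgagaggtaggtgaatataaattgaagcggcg
Herpud1: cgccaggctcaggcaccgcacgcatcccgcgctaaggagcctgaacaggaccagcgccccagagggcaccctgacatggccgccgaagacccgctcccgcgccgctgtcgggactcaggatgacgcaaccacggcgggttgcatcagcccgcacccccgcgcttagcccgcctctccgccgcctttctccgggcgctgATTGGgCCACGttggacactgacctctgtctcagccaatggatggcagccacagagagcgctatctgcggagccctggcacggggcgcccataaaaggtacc
Dnajb9: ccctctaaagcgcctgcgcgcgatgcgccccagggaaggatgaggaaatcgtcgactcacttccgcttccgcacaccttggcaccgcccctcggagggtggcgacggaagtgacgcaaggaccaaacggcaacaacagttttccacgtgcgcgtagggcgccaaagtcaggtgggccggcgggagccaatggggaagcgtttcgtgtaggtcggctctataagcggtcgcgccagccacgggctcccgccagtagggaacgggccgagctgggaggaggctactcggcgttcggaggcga

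The motifs were searched on both strands in 9 of the 10 genes, those with a window in the RefSeq table. The ER stress element (ERSE) was read as CCAAT and CCACG with any 9 bases between them. Hspa5 held it at -65 to -47 from the start. Hsp90b1 held 2 copies, at -212 to -194 and, on the opposite strand, at -107 to -89. Calr held it on the opposite strand at -162 to -144. Herpud1 held the related ERSE-II, read as ATTGG and CCACG with 1 base between them, at -52 to -42. Over all 32841 promoter windows, 0.119% held an ERSE and 0.0365% an ERSE-II. The core of the unfolded protein response element, TGACGTGG, stood in 0.676% of all windows and in 0 of the 9. Xbp1, Ern1, Dnajb9, Pdia4 and Sdf2l1 held none of the motifs, read in full, in their windows. The last 40 bases of the window lay in a GENCODE M21 transcript of the gene, on the same strand, for 7 of the 9. A match describes letters and does not show that a factor binds there.

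**Figure D1:**
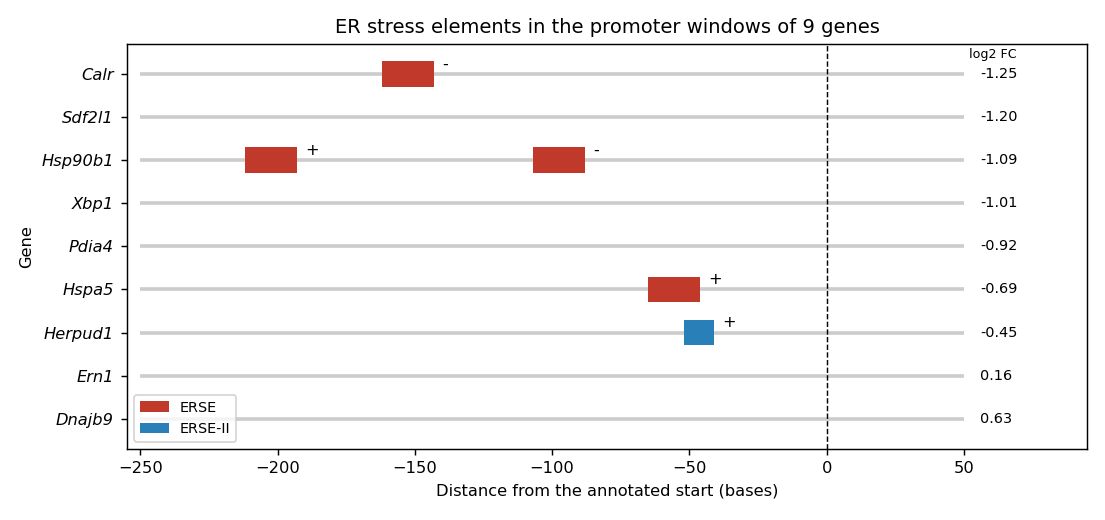
ER stress elements in the promoter windows of 9 genes, by distance from the annotated start in bases (horizontal axis), with the strand of each match beside it and the log2 fold change of experiment 2 over experiment 1 at the right. The genes run down the page by that fold change. The 4 genes with an element lay at -1.25 (Calr), -1.09 (Hsp90b1), -0.69 (Hspa5) and -0.45 (Herpud1). Those without one lay at -1.20 (Sdf2l1), -1.01 (Xbp1), -0.92 (Pdia4), 0.16 (Ern1) and 0.63 (Dnajb9).

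The 4 columns held 49068952 to 63623476 counts. Levels are given as CPM, counts scaled to a common library total. The limit for a gene without counts, set at 3 counts for counting error alone, was 0.0472 to 0.0611 CPM. Mitochondrial genes held 14.3% (sgElovl1) and 10.2% (sgNT) of the counts in experiment 2, against 9.71% (sgElovl1) and 7.72% (sgNT) in experiment 1. All 7 CD8+ T cell markers were present, with a summed level of 4646 to 5202 CPM before TMM scaling. Within this sum, Cd8a and Cd8b1 were higher in experiment 2 and Trac and Thy1 lower. Cd8a had 702 (sgElovl1) and 743 (sgNT) CPM in experiment 2, against 539 and 516 in experiment 1. Thy1 had 831 (sgElovl1) and 930 (sgNT) CPM, against 1314 and 1348. The vector's reporter, CD90.1, is a form of Thy1, and its reads were not told apart here. Cd4 stayed at or under 0.116 CPM. The 4 B cell markers summed to 7.61 to 9.97 CPM, mostly Cd79b (7.19 to 9.09 CPM), with Ms4a1 at 0 in all 4 columns. The dendritic cell list summed to 0.393 to 0.856 CPM (Siglech at 0), the NK cell list to 1.01 to 1.79 CPM, all of it Klrb1c (Ncr1 at 0), and the erythroid list to 0.252 to 0.419 CPM (Hbb-bs at 0). Elovl1 served as the check of the labels, with 55.8 and 61.3 CPM in sgElovl1 cells of experiments 2 and 1, against 93.5 and 110 CPM in sgNT cells. The sgElovl1 columns thus kept 57.5% of the sgNT level. This was a log2 fold change of -0.80 (SE 0.07, edgeR adjusted p = 3.8e-28). The exact permutation p was 0.333, which no split of 4 columns can undercut. With the guide as the only term in edgeR, Elovl1 was not past threshold, at -0.80 over all columns, -0.72 and -0.87 without the sgElovl1 column of experiment 2 or 1, and -0.89 and -0.68 without the sgNT column of experiment 2 or 1.

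The 10 genes spanned a wide range of levels. Divided by the length of their joined exons in GENCODE M21, Calr and Hsp90b1 stood highest. In experiment 2 Hsp90b1 was above Calr, with 87.4 against 80.1 CPM per kb in sgElovl1 cells and 94.4 against 88.0 CPM per kb in sgNT cells. In experiment 1 Calr was above Hsp90b1 in sgElovl1 cells, with 195 against 182 CPM per kb, and both stood at 204 CPM per kb in sgNT cells, so that their order was not fixed. Hspa5 followed with 78.5 to 136 CPM per kb over the 4 columns, Sdf2l1 with 31.0 to 74.6 and Pdia4 with 28.0 to 55.2, and Sdf2l1 exceeded Pdia4 in every column. Xbp1 (17.8 to 37.8 CPM per kb) and Herpud1 (20.8 to 29.3) changed places between the experiments, as did Atf6 (3.49 to 4.32) and Dnajb9 (2.49 to 4.54) in sgElovl1 cells. Ern1 was lowest in every column, with 0.605 to 0.715 CPM per kb. These levels are approximate, since reads in introns were counted too. As a share of all counts assigned to genes, the 10 genes took 0.114% (sgElovl1) and 0.129% (sgNT) in experiment 2, against 0.232% (sgElovl1) and 0.244% (sgNT) in experiment 1.

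**Figure D2:**
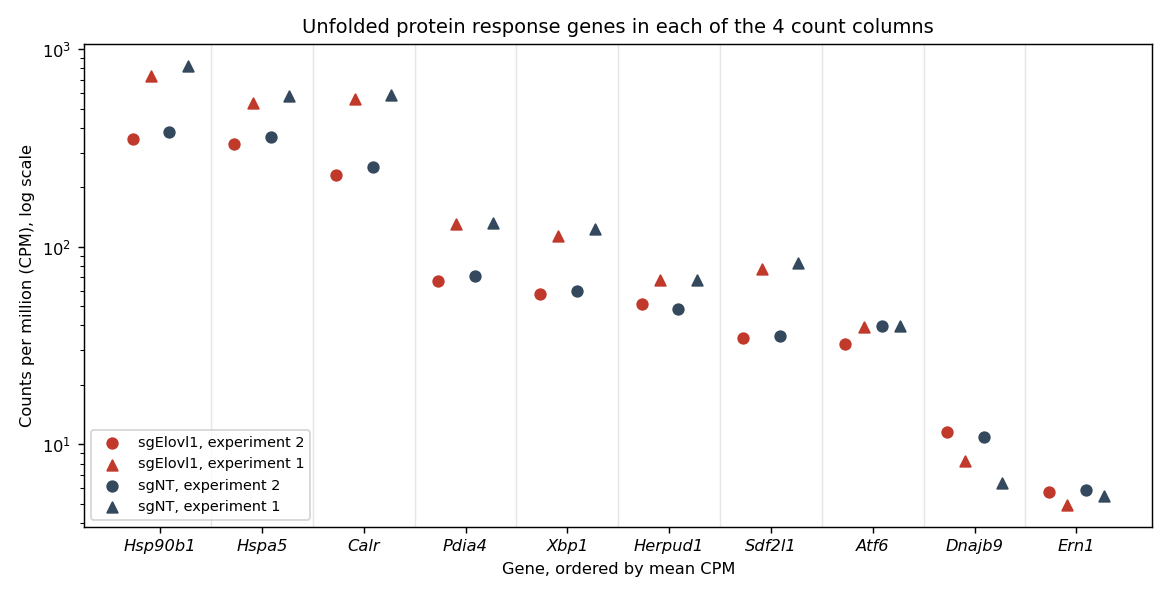
CPM of the 10 genes in each of the 4 count columns on a log axis (vertical), with the genes ordered by mean CPM (horizontal). Each point is 1 column that sums 2 mice, red for sgElovl1 and dark blue for sgNT, circles for experiment 2 and triangles for experiment 1. From Hsp90b1 to Sdf2l1 both circles of a gene lie below both triangles, at Dnajb9 and Ern1 both lie above, and at Atf6 the columns of the experiments overlap.

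Among the sensors and their transcription factors, Xbp1 differed between the experiments. Xbp1 encodes the factor that IRE1 activates by splicing. It had 57.7 CPM (sgElovl1) and 59.7 CPM (sgNT) in experiment 2, against 114 CPM (sgElovl1) and 123 CPM (sgNT) in experiment 1. Both columns of experiment 2 were below both of experiment 1. The log2 fold change of experiment 2 over experiment 1 was -1.01 (SE 0.07, adjusted p = 2.5e-49 in edgeR). Gene counts do not separate the spliced from the unspliced form, so that the activity of IRE1 was not read here. Ern1, which encodes IRE1, had 5.74 and 5.85 CPM in sgElovl1 and sgNT cells of experiment 2, against 4.94 and 5.46 CPM in those of experiment 1. Its columns did not overlap between the experiments, but the difference was small for its depth of 260 to 346 counts, at 0.16 (SE 0.18, adjusted p = 0.484 in edgeR). Atf6 had 32.2 CPM (sgElovl1) and 39.9 CPM (sgNT) in experiment 2, against 39.2 CPM (sgElovl1) and 39.9 CPM (sgNT) in experiment 1. Only the sgElovl1 column of experiment 2 stood apart, and the difference between the experiments was -0.14 (SE 0.08, adjusted p = 0.111 in edgeR). Small RNA genes or a processed transcript overlap Atf6 (Gm23523 and Gm25235), Hsp90b1 (Gm15344 and Gm25745) and Pdia4 (Mir704) on the same strand in GENCODE M21, and strand does not tell their reads apart.

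The chaperones of the Hsp70 and Hsp90 type included 3 falls and the only rise among the 10. Hsp90b1 encodes GRP94, the Hsp90 of the ER. It had 352 CPM (sgElovl1) and 381 CPM (sgNT) in experiment 2, against 735 CPM (sgElovl1) and 823 CPM (sgNT) in experiment 1, a log2 fold change of -1.09 (SE 0.07, adjusted p = 5.2e-56 in edgeR). Hspa5 encodes BiP, the Hsp70 of the ER, which holds the sensors inactive in unstressed cells. It had 332 CPM (sgElovl1) and 358 CPM (sgNT) in experiment 2, against 536 CPM (sgElovl1) and 577 CPM (sgNT) in experiment 1. Its fold change of -0.69 (SE 0.07, adjusted p = 1.1e-24 in edgeR) was smaller in size than that of Hsp90b1. Sdf2l1, which works with BiP and the ERdj3 cochaperone, had 34.4 CPM (sgElovl1) and 35.4 CPM (sgNT) in experiment 2, against 77.1 CPM (sgElovl1) and 82.6 CPM (sgNT) in experiment 1. The log2 fold change was -1.20 with an SE of 0.07 (edgeR adjusted p = 6.1e-60).

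Dnajb9 moved the other way. It encodes ERdj4, a J-domain cochaperone of BiP and a known target of XBP1. It had 11.6 CPM (sgElovl1) and 11.0 CPM (sgNT) in experiment 2, against 8.27 CPM (sgElovl1) and 6.35 CPM (sgNT) in experiment 1. Both columns of experiment 2 lay above both of experiment 1, with a log2 fold change of 0.63 (SE 0.14, adjusted p = 8.7e-06 in edgeR). It rested on 402 to 642 counts per column.

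The lectin chaperone Calr, which holds newly made glycoproteins and calcium in the ER, fell furthest. It had 231 CPM (sgElovl1) and 253 CPM (sgNT) in experiment 2, against 561 CPM (sgElovl1) and 588 CPM (sgNT) in experiment 1. The log2 fold change of -1.25 (SE 0.06, adjusted p = 2.3e-77 in edgeR) placed it at percentile 4.91 of all genes tested. Pdia4, a disulfide isomerase, had 67.2 CPM (sgElovl1) and 71.3 CPM (sgNT) in experiment 2, against 130 CPM (sgElovl1) and 132 CPM (sgNT) in experiment 1. Its log2 fold change was -0.92 with an SE of 0.07 (edgeR adjusted p = 2.0e-42), and the ratio was -0.95 between the sgElovl1 columns and -0.89 between the sgNT columns. Herpud1, a membrane protein of the degradation complex, had the smallest of the called falls. It had 51.6 CPM (sgElovl1) and 48.5 CPM (sgNT) in experiment 2, against 68.1 CPM (sgElovl1) and 68.3 CPM (sgNT) in experiment 1, a log2 fold change of -0.45 (SE 0.07, adjusted p = 9.0e-10 in edgeR).

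Between the experiments, the columns did not overlap for 9 of the 10 genes, against 75.8% of all genes tested, 7 were called lower and 1 higher, and Atf6 and Ern1 were not called. A call in itself was common, at 55.6% of all genes tested in either direction. The median log2 fold change of the 10 genes was -0.81, against -0.002 over all genes. It was -0.82 between the sgElovl1 columns and -0.79 between the sgNT columns. For these genes too, the exact two-sided permutation test could not go below p = 0.333. The experiments also differed in the share of mitochondrial counts given above. With the mitochondrial genes and the 20 genes of most counts left out of the scaling, the median of the 10 genes was -0.81 and the calls were again 7 lower and 1 higher. The plasma cell list, a cell type with an abundant ER, summed to 3.77 (sgElovl1) and 4.40 (sgNT) CPM before TMM scaling in experiment 2, against 5.72 (sgElovl1) and 6.74 (sgNT) in experiment 1. Most of it was Prdm1, which effector T cells express as well, and Mzb1 was at 0 in 3 of the 4 columns. Jchain had 0.506 (sgElovl1) and 0.183 (sgNT) CPM in experiment 2, against 0.291 (sgElovl1) and 0.456 (sgNT) in experiment 1. It was thus higher in sgElovl1 cells and lower in sgNT cells. Sdc1 had 0.122 (sgElovl1) and 0.0815 (sgNT) CPM in experiment 2, against 0.504 (sgElovl1) and 0.173 (sgNT) in experiment 1. The myeloid list summed to 15.3 (sgElovl1) and 14.4 (sgNT) CPM in experiment 2, against 19.0 (sgElovl1) and 16.8 (sgNT) in experiment 1. Most of it was Cd68 and Fcer1g, while Lyz2 and Cd14 were each at 0 in 3 of the 4 columns. Csf1r went the other way, with 0.977 (sgElovl1) and 1.1 (sgNT) CPM in experiment 2, against 0.504 (sgElovl1) and 0.692 (sgNT) in experiment 1. Adgre1 had 0.157 (sgElovl1) and 0.0204 (sgNT) CPM in experiment 2 and 0 in both columns of experiment 1. Cd68 had 10.7 (sgElovl1) and 10.1 (sgNT) CPM in experiment 2, against 10.9 (sgElovl1) and 8.33 (sgNT) in experiment 1. Fcer1g had 3.44 (sgElovl1) and 3.14 (sgNT) CPM in experiment 2, against 7.63 (sgElovl1) and 7.81 (sgNT) in experiment 1. The part of these cells in the result was not tested. In bulk RNA, fewer cells of a type and less RNA per cell cannot be told apart.

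The comparison of sgElovl1 with sgNT cells addressed whether the guide against Elovl1 moved the response. Elovl1 RNA stayed at 57.5% of the sgNT level and the share of edited cells was not read here, which limits what an absence of calls can show. Called were 0 of the 10 genes, where 0.762% of all genes tested were called higher and 0.437% lower in sgElovl1 cells. At an unadjusted p under 0.05, edgeR had 2 of the 10, Hsp90b1 and Atf6, against 10.6% of all genes tested, and the count of calls was also 0 with DESeq2 and limma-voom. Over all genes the calls were 122 higher and 70 lower, and the split shifted to 132 against 44 under the size factors of DESeq2, 182 against 57 under upper-quartile scaling, and 173 against 44 where scaling ignored the mitochondrial and most counted genes. The median log2 fold change of the 10 genes was -0.08, against -0.01 over all genes, and 8 of 10 lay below 0, as did 53.5% of all genes. In 9 of the 10 the ratio had the same sign in both experiments, against 55.7% of all genes. The median ratio of the 10 was -0.07 within experiment 2 and -0.08 within experiment 1.

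Among these genes Atf6 had the lowest fitted value, -0.16 (SE 0.08, 95% interval -0.31 to -0.02, adjusted p = 0.397 in edgeR). Its sgElovl1 columns were both below its sgNT columns, and the ratio was -0.31 in experiment 2 and -0.03 in experiment 1. Hsp90b1 had -0.14 (SE 0.07, adjusted p = 0.431 in edgeR), and its ratio was -0.11 in experiment 2 and -0.16 in experiment 1. For Hspa5 the value was -0.11 (SE 0.07, adjusted p = 0.591 in edgeR), and the experiments gave -0.11 each. Calr had -0.10, Xbp1 -0.08, Sdf2l1 -0.07 and Pdia4 -0.05, with 95% intervals that together ran from -0.23 to 0.07. Herpud1 had 0.04 and an interval of -0.10 to 0.18. The intervals were wider for the genes of low count, at -0.44 to 0.27 for Ern1 and -0.04 to 0.49 for Dnajb9. Dnajb9 had the highest fitted value, 0.23 (SE 0.14, adjusted p = 0.579 in edgeR), and its ratio was 0.08 in experiment 2 and 0.38 in experiment 1. The SE and the interval rest on the dispersion shared by all genes and not on the spread between mice.

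**Figure D3:**
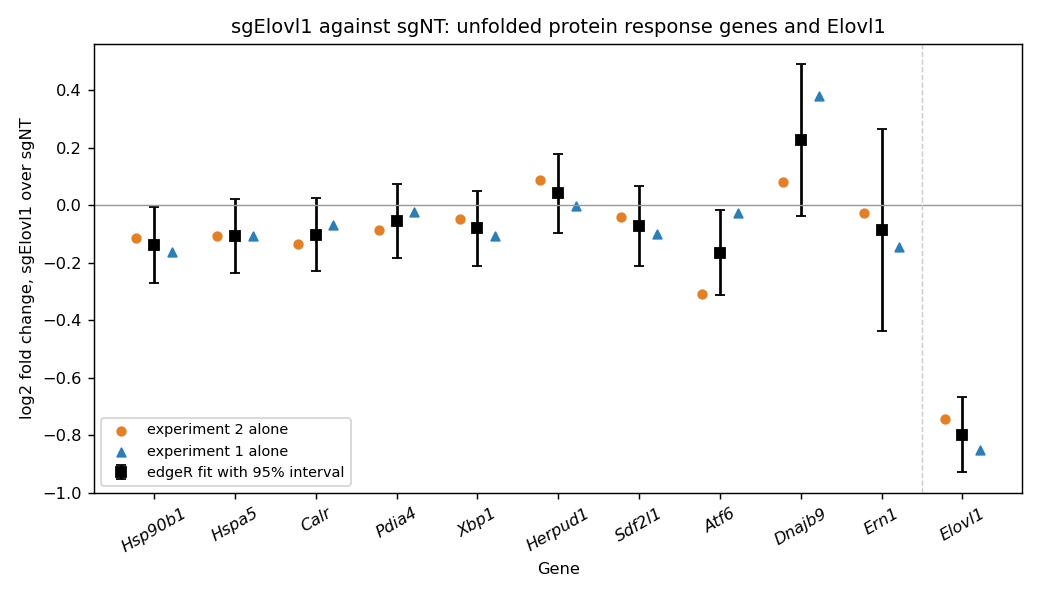
Log2 fold change of sgElovl1 over sgNT (vertical axis) for the 10 genes, ordered by mean CPM, and for Elovl1. Black squares are the edgeR fit with its 95% interval, orange circles the ratio of experiment 2 alone and blue triangles that of experiment 1 alone. The intervals of 8 genes include 0, those of Hsp90b1 and Atf6 end just below it before adjustment over all genes, and Elovl1 lies at -0.80.

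The wider pathway was followed in 112 genes in 7 lists, all of which were tested. Between the experiments 72 of the 112 were called lower and 13 higher, with a median of -0.34. Over all genes tested, 29.2% were called lower and 26.4% higher, with a median of -0.002. The counts between the experiments in each list below are to be read against these shares. Between sgElovl1 and sgNT cells 0 were called by edgeR, 20 had an unadjusted p under 0.05, and 90 lay below 0, with a median of -0.08. Over all genes 10.6% had an unadjusted p under 0.05 and 53.5% lay below 0, with a median of -0.01. Both DESeq2 tests also called 0, while limma-voom called 2, Ostc and Nupr1. Among the genes named from these lists, protein-coding genes overlap Manf (Rbm15b) and Ube2g2 (Gm49325) on the same strand in GENCODE M21. Other genes so overlap Ostc (Gm42998), Eif2ak3 (Gm23346), Syvn1 (Mir6988), Pdia5 (Gm25548) and Ube2g2 (Mir1930), and strand does not tell these reads apart.

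In the list of sensors and their factors, 2 of 11 genes were lower between the experiments, 2 higher and 7 not called, with a median of -0.14. Over all genes tested, 55.6% were called in either direction. Eif2ak3, which encodes PERK, had 86.5 CPM (sgElovl1) and 87.4 CPM (sgNT) in experiment 2, against 56.4 CPM (sgElovl1) and 56.0 CPM (sgNT) in experiment 1, a log2 fold change of 0.63 with an SE of 0.07 (edgeR adjusted p = 2.8e-19). The columns of each experiment were nearly equal. Mbtps1, the site-1 protease that cleaves ATF6, rose by 0.17 (adjusted p = 0.0229 in edgeR), and this call was lost under 6 of the 13 alternatives. Among these was DESeq2 (adjusted p = 0.0773 in the Wald test). The fits without the sgNT column of experiment 1 (0.07) or 2 (0.23), or the sgElovl1 column of experiment 2 (0.11), were others. Atf4, the factor downstream of PERK, fell by 0.29 (adjusted p = 2.4e-05 in edgeR), and was not past threshold without the sgNT column of experiment 2, at -0.26. In sgElovl1 against sgNT, Mbtps1 had 0.16 (adjusted p = 0.342 in edgeR) and the membrane-bound factor Creb3l2 had -0.18 (adjusted p = 0.827 in edgeR).

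Hsp70 and Hsp90 chaperones and their cochaperones were lower in 13 of 18 genes and higher in 3, with a median of -0.35. Manf, a secreted cofactor of BiP, had 61.9 CPM (sgElovl1) and 59.9 CPM (sgNT) in experiment 2, against 125 CPM (sgElovl1) and 138 CPM (sgNT) in experiment 1, and fell by 1.11 on the log2 scale. Hyou1, an Hsp70-related exchange factor of BiP, fell by 0.90. The rises other than Dnajb9 were Sdf2, the paralogue of Sdf2l1, at 0.47 and Cnpy4 at 0.45. Sdf2 had 68.5 CPM (sgElovl1) and 66.5 CPM (sgNT) in experiment 2, against 46.8 CPM (sgElovl1) and 50.7 CPM (sgNT) in experiment 1, so that the paralogues went in opposite directions. In sgElovl1 against sgNT, Sil1, another exchange factor of BiP, had the smallest p of this list, at -0.26 (SE 0.08, adjusted p = 0.0938 in edgeR), and Dnajc3 had -0.12 (adjusted p = 0.518 in edgeR).

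Lectin chaperones and glycan processing were lower in 5 of 9 genes and higher in 0, with a median of -0.47. Canx, the membrane-bound partner of Calr, had 137 CPM (sgElovl1) and 159 CPM (sgNT) in experiment 2, against 344 CPM (sgElovl1) and 367 CPM (sgNT) in experiment 1. Its fall of 1.27 on the log2 scale was close to that of Calr. Lman1, the cargo receptor ERGIC-53, fell by 0.84. For sgElovl1 over sgNT, Canx had -0.15 (adjusted p = 0.341 in edgeR). Uggt2, a glycoprotein glucosyltransferase, had 3 and 2 counts in the sgElovl1 columns of experiments 2 and 1, against 16 and 20 counts in the sgNT columns (adjusted p = 0.264 in edgeR), and no fold is given at this depth.

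Disulfide isomerases and thiol oxidases were lower in 12 of 16 genes and higher in 1, with a median of -0.71. Ero1a, the oxidase that recharges the isomerases and a gene also known to respond to hypoxia, had 37.5 CPM (sgElovl1) and 40.7 CPM (sgNT) in experiment 2, against 127 CPM (sgElovl1) and 138 CPM (sgNT) in experiment 1. The log2 fold change was -1.76 with an SE of 0.07 (edgeR adjusted p = 5.6e-137). Pdia5 fell by 1.72 from a low level, with 52 (sgElovl1) and 57 (sgNT) counts in experiment 2, against 156 (sgElovl1) and 249 (sgNT) counts in experiment 1. Qsox1, a sulfhydryl oxidase of the later secretory pathway, was the one rise, at 0.75. For sgElovl1 over sgNT, Txndc5 had -0.19 (adjusted p = 0.193 in edgeR) and Pdia6 -0.15 (adjusted p = 0.346 in edgeR).

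ER-associated degradation, which returns misfolded proteins to the cytosol, was lower in 12 of 25 genes and higher in 5, with a median of -0.17. The ubiquitin ligase Syvn1 (HRD1) had 58.5 CPM (sgElovl1) and 56.9 CPM (sgNT) in experiment 2, against 44.5 CPM (sgElovl1) and 39.9 CPM (sgNT) in experiment 1, a rise of 0.45 on the log2 scale, and the lectin Os9 rose by 0.37. Herpud1, their partner in the complex, fell as given above. Vcp, the ATPase that extracts substrates, fell by 0.61 and Selenos by 0.55. In the comparison of sgElovl1 with sgNT, the ubiquitin-conjugating enzymes Ube2g2 (-0.18, adjusted p = 0.324 in edgeR) and Ube2j1 (-0.13, adjusted p = 0.469 in edgeR) had the smallest p of the list.

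Translocon, signal peptidase and export genes were the most uniform, with 22 of 23 lower, 0 higher and a median of -0.79. Sec61g, a subunit of the translocation channel, had 36.9 CPM (sgElovl1) and 36.0 CPM (sgNT) in experiment 2, against 105 CPM (sgElovl1) and 113 CPM (sgNT) in experiment 1, a fall of 1.58. Kdelr3, a receptor that retrieves ER proteins from the Golgi, fell by 2.26 on 16 (sgElovl1) and 8 (sgNT) counts in experiment 2, against 45 (sgElovl1) and 85 (sgNT) counts in experiment 1. In sgElovl1 against sgNT, Ostc, a subunit of the oligosaccharyltransferase, had -0.23 (SE 0.07, adjusted p = 0.0594 in edgeR and 0.0181 in limma-voom), and Stt3a, its catalytic subunit, -0.20 (adjusted p = 0.119 in edgeR).

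The outputs of PERK and CHOP split, with 6 of 10 genes lower and 2 higher between the experiments and a median of -0.33. Ddit3, which encodes CHOP, had 41.2 CPM (sgElovl1) and 38.7 CPM (sgNT) in experiment 2, against 20.5 CPM (sgElovl1) and 25.2 CPM (sgNT) in experiment 1, a log2 fold change of 0.81 with an SE of 0.08 (edgeR adjusted p = 1.0e-22). Ppp1r15a (GADD34), which restores translation by dephosphorylating eIF2alpha, rose by 0.65. Chac1, a glutathione-degrading enzyme induced by ATF4 and CHOP, had 25 (sgElovl1) and 37 (sgNT) counts in experiment 2, against 119 (sgElovl1) and 185 (sgNT) counts in experiment 1, and fell by 2.14. Atf3 fell by 1.74 (SE 0.44), on 29 (sgElovl1) and 25 (sgNT) counts in experiment 2, against 83 (sgElovl1) and 118 (sgNT) in experiment 1. In sgElovl1 against sgNT, Nupr1, a small stress-induced chromatin protein, had -0.70 (SE 0.21, adjusted p = 0.0697 in edgeR and 0.0217 in limma-voom), and Ppp1r15b -0.20 (adjusted p = 0.117 in edgeR). Nupr1 had 104 and 228 counts in the sgElovl1 columns of experiments 2 and 1, against 125 and 521 counts in the sgNT columns.

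**Figure D4:**
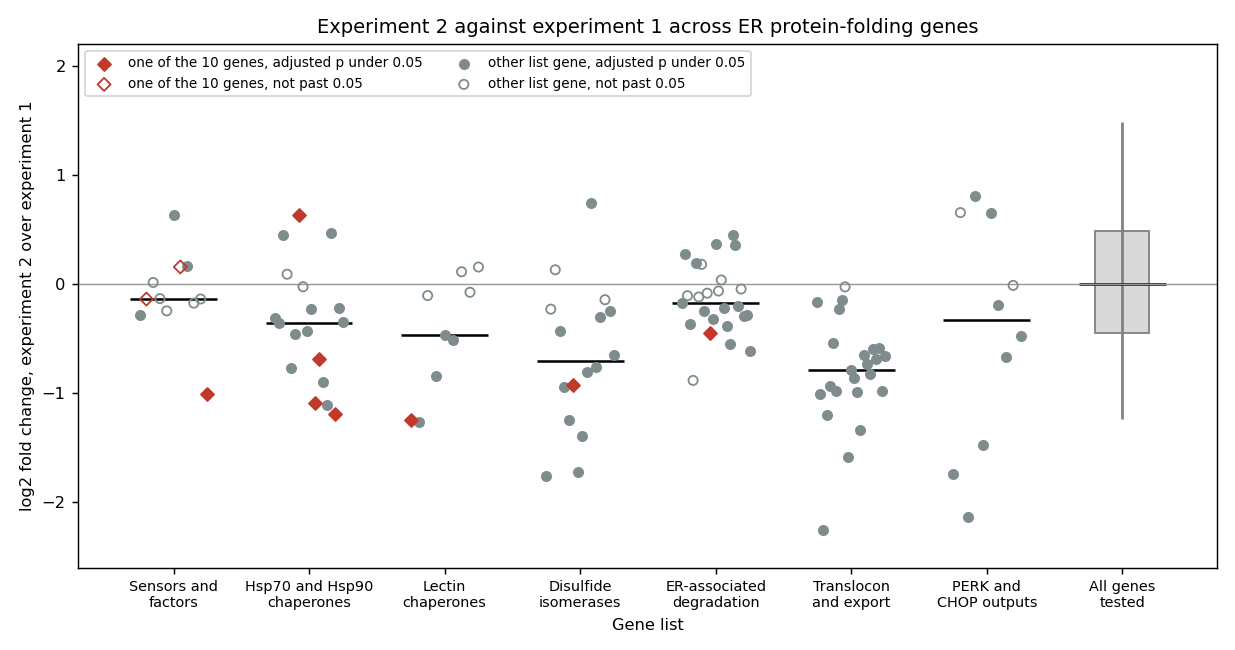
Log2 fold change of experiment 2 over experiment 1 (vertical axis) for the 112 genes by list (horizontal axis), with a line at the median of each list. Red diamonds are the 10 genes and grey circles the others, filled where the adjusted p was under 0.05. The bar at the right spans percentiles 5 to 95 (-1.24 to 1.49) of all 16006 genes and its box percentiles 25 to 75. The translocon list lies below 0 throughout, and the sensors and the degradation list lie around or just below it.

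The genes whose profile over the 4 columns was most like the mean profile of the 10 were sought among 8525 other genes of at least 10 CPM, by root-mean-square distance of log2 CPM centred over the columns. The nearest were Pcgf5 (0.0081), Emg1 (0.0123), Ndufc1 (0.0124), Cstb (0.0128) and Mia2 (0.0129), none of them in the lists. Of the 10 genes themselves, Hspa5 was nearest to the mean at 0.0552 and Dnajb9 farthest at 0.634. With 4 columns a profile holds little more than the difference between the experiments, so that such likeness describes these columns only.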

How the data were processed

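According to the methods and GEO's processing notes, strand-specific paired reads were aligned by STAR 2.7.10b to GRCm39 (mm39) and assigned to whole genes, introns included, by strand-aware featureCounts 2.0.1 in R 4.3.3. The annotation and the treatment of multi-mapping reads are not given in the sources used here. Raw counts, with no normalization, were what the authors deposited, summed over 2 mice per column, for 56805 symbols in 4 columns. The authors' own test was that of DESeq2 1.42.0.

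Genes passing filterByExpr entered edgeR 4.0.16 with TMM factors and were tested by quasi-likelihood, with terms for experiment and guide, Benjamini-Hochberg adjustment over 16006 genes and a threshold of 0.05. This left 1 residual degree of freedom. The estimated prior was of infinite weight: p-values and standard errors rest on the dispersion trend of all genes (biological coefficient of variation 6.98%). The design was written for 8 libraries and run on 4 columns. CPM are counts scaled after TMM, and a ratio of 1 experiment compares 2 columns. The 95% intervals are those of the edgeR fit.

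The 10 genes and the lists were chosen with earlier results of these data known. From each list the text names the 2 genes with the smallest p in sgElovl1 against sgNT and up to 2 called genes of largest change in each direction between the experiments. Alternatives were other scalings, filters, DESeq2, limma-voom 3.58.1, a fit without the other term, and each column left out.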

Additional observations from a re-analysis of the deposited data

Results flagged for a closer look

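Herpud1 had log2 ratios of sgElovl1 to sgNT of opposite sign in the experiments, 0.0885 in experiment 2 and -0.0032 in experiment 1. Atf6 had log2 ratios of experiment 2 to experiment 1 of opposite sign in the guides, -0.28 between the sgElovl1 columns and 3.28e-05, in effect no difference, between the sgNT columns. Each ratio compares 2 columns, and the difference between the ratios was not tested. Among the 10 genes, no other had ratios of opposite sign in either comparison. The SE of the fit over all 4 columns was 0.07 for Herpud1 and 0.08 for Atf6.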

How the results depend on the processing

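Between the experiments, the 7 falls and the rise of Dnajb9 among the 10 genes were called under all 13 alternatives, at adjusted p up to 0.0124. Their median moved to -0.72 with upper-quartile factors and -0.74 with the filter at 5 CPM, and ran from -0.84 to -0.76 with 1 column left out. Over all genes, 2804 to 4445 were called higher with 1 column left out, and Atf6 ran from -0.28 to 0.0094. Between sgElovl1 and sgNT, no gene of the 10 was called under any of the 13. Their median was -0.0685 with DESeq2 size factors, -0.0683 in both DESeq2 tests, -0.0659 with the filter at 5 CPM, -0.0639 with upper-quartile factors and -0.0600 with the mitochondrial and most counted genes left out of scaling.

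Calls over all genes fell to 94 without a filter (66 higher, 28 lower), 35 with the filter at 5 CPM (30 higher, 5 lower) and 26 in each DESeq2 test (22 higher, 4 lower). The lower calls were 44 with DESeq2 size factors and 44 with the mitochondrial and most counted genes left out of scaling. With the guide as the only term edgeR called 0 (0 higher, 0 lower), with 19 genes at an unadjusted p under 0.05, and Elovl1 had -0.80.

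With 1 column left out and the guide as the only term, the guides are no longer balanced over the experiments, and the difference between the experiments enters the value. Calls in edgeR then ran from 0 (235 genes at an unadjusted p under 0.05) to 6, with 0 to 6 higher and 0 to 2 lower, Elovl1 ran from -0.89 to -0.68 and the median of the 10 genes from -0.54 to 0.38. The single genes ran from -0.49 to 0.27 for Hspa5, -0.66 to 0.52 for Xbp1, -0.18 to 0.0234 for Ern1, -0.14 to 0.67 for Dnajb9, -0.77 to 0.51 for Hsp90b1, -0.60 to 0.46 for Pdia4, -0.18 to 0.30 for Herpud1, -0.78 to 0.65 for Sdf2l1 and -0.87 to 0.64 for Calr, with Atf6 below 0 throughout. Of the other named genes, Creb3l2 ran from -0.35 to 0.0234, Dnajc3 from -0.23 to 0.0217, Canx from -0.93 to 0.60, Txndc5 from -0.56 to 0.16, Pdia6 from -1.004 to 0.70, Ube2g2 from -0.39 to 0.0346, Ostc from -0.88 to 0.57, Stt3a from -0.76 to 0.38 and Nupr1 from -1.51 to 0.31. No paired analysis was possible because each column sums 2 mice and carries no replicate number, which leaves no pairing by mouse, while the experiment term of the fit does set the sgElovl1 against the sgNT column within each experiment. The depth of Ern1, Dnajb9 and the genes given in counts limits what could be detected for them.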

Other observations

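An ERSE or ERSE-II stood in the promoter windows of 49 genes, of which 30 were tested. The 12 in the pathway lists, of which Hspa5, Hsp90b1, Calr and Herpud1 are 4, had 9 genes called lower in experiment 2, 1 higher and a median log2 fold change of -0.73. The other 18 had 6 lower, 8 higher and a median of 0.19. Both sets include genes of few counts, such as Zfp57 (5 to 20 per column) and Xlr3a (10 to 22) among the 18 and Derl3 (14 to 42) among the 12. Over all genes tested, 29.2% were called lower and 26.4% higher, with a median of -0.002. Among the 12, Pdia6 had 75.8 CPM (sgElovl1) and 84.1 CPM (sgNT) in experiment 2, against 199 CPM (sgElovl1) and 221 CPM (sgNT) in experiment 1. Syvn1 was the one that rose. Among the 18, Pan2, a subunit of a deadenylase, had 124 CPM (sgElovl1) and 113 CPM (sgNT) in experiment 2, against 77.5 CPM (sgElovl1) and 66.3 CPM (sgNT) in experiment 1. The named genes of this paragraph were chosen after their values were seen, and no test compared the 12 with the 18. The lists were drawn up with the pathway known, so that the split by list is no independent sorting of these genes.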
